A study of Mus musculus with 4 samples.

Results

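The merged Zfp574 peaks at the promoters of Trim41, Rbm25 and Clasp1 were examined in mouse embryonic stem (mES) cells. They are 3 of 140 regions that the authors listed as bound by tagged Zfp574 when both replicates were combined. Zfp574 is a zinc-finger protein, and Cut&Run releases and sequences the DNA next to an antibody-bound protein. The members were chosen by the width of the merged peak, over 250 bp, and by being found in the lists of both replicates, so width and presence in the 3 lists are descriptions here and carry no test. Of the 140 merged peaks, 54 were found in both replicates (38.6%, 95% Wilson interval 30.9 to 46.8), and 19 of these were also over 250 bp wide (13.6% of the 140, interval 8.86 to 20.2). The 3 members thus stand beside 16 other peaks that meet the same rule. Just inside the threshold lay Mrnip (chromosome 11, 50174652 to 50174902), 251 bp wide with a fold enrichment of 9.66, and just outside it Wdr75 (chromosome 1, 45795290 to 45795520), 231 bp wide with 9.02.

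All samples were feeder-free diploid mES cells grown in serum with LIF. They carried the OsTir1 parental cassette, in which the EF1a promoter drives ARF16-HA, OsTiR1 with 3xmYC, and mCherry, flanked by FRT and F3. In 2 AID-Zfp574 samples Zfp574 also had an N-terminal auxin-inducible degron and a V5 tag at its own locus, and 2 samples of the OsTir1 parental line had no V5 tag on it. The V5-tag antibody was used in both groups, and no auxin treatment is described for these samples. AID-Zfp574 lines were isolated as individual clones. Solved depths were 10.2 and 10.5 M treatment reads (M, mega) for replicates 1 and 2 and 20.6 M for the merged list, each called over 36.0 M control reads. These depths assume 50 bp per read, on which the background values fall, and not the stated extension of 300 bp, which may not apply to the paired-end BED input that is also stated. At another length the solved depths and control reads could differ, which was not tested. A peak list of the parental line was not analysed here, so that line contributes only the local background of the peaks, and the lists hold no expression values against which the cell type could be checked.

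Trim41 encodes a tripartite-motif protein with a RING domain, a family of E3 ubiquitin ligases that attach ubiquitin to target proteins. Rbm25 encodes an RNA-binding protein that takes part in the choice of splice sites. Clasp1 encodes a protein that binds the growing plus ends of microtubules and stabilizes them, also at the mitotic spindle. A promoter is the stretch around a transcription start site (TSS), where sequence-specific factors bind and RNA polymerase begins transcription.

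Within 150 bp of the merged summit all 3 promoters held the 6-mer CTAGAG, as did 53.3% of the other 137 merged summits, and within 50 bp none of the 3 did. Rbm25 and Clasp1 also held ATAGAG within 150 bp, as did 46.7% of the others. These stretches are shown first because the positions of the peaks are read against them below. Sequences were read from the RefSeq copy of GRCm38, the assembly also named mm10. Capitals mark matches to the 6-mers ATAGAG and CTAGAG and to the 8-mers CGCTCTAG, ACCATAGA and CCATAGAG, searched on both strands. CGCTCTAG overlaps CTAGAG on the other strand, and the other 8-mers overlap ATAGAG. All 5 had been picked in an earlier look at these same merged summits, so their presence is no independent support. The stretch at Rbm25 holds 3 matches to the 6-mers and the others 1 each. Stretches inside a UTR or a RefSeq exon of the gene are kept to 30 bases.

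Trim41, lower match (chr11:48817106-48817135, minus strand): ccgagtgtcagCTAGAGCGtctccttctcg
Trim41, upper match (chr11:48817402-48817431, minus strand): caagtttcgggtCTAGAGgggccggaaata
Rbm25 (chr12:83632087-83632207, minus strand): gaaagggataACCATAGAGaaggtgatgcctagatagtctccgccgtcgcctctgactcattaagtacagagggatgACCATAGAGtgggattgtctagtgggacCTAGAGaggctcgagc
Clasp1, first match (chr1:118389081-118389110, minus strand): gcgataaaagagCTAGAGaggagtcaggag
Clasp1, second match (chr1:118389282-118389311, plus strand): gctgggcgttACCATAGAGaggaagccacc

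At Clasp1 both replicates placed a summit, the base of highest read coverage in a peak, within 1 bp of each other just upstream of the gene. Those bases are in capitals in the next stretch, which holds none of the 5 short sequences.

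Clasp1, replicate summits (chr1:118388970-118389057, plus strand): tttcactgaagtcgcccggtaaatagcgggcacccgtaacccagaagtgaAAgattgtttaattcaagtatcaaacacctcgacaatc

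Trim41 (ENSMUSG00000040365.14, minus strand) had the widest of the 140 merged peaks, 676 bp on chromosome 11 from 48816921 to 48817596. Its fold enrichment, the ratio of summit reads to local background after 1 is added to both, was 13.5, which no merged peak exceeded and the peak between Eif2s1 and Atp6v1d equaled. The summit at 48817171 was covered by 20 reads (exact 95% Poisson interval 12.2 to 30.9, counting error alone). It lay 182 bp downstream of the nearest annotated TSS, at 48817353, in a UTR. It was also upstream of the other TSS inside the merged peak, at 48816953. The merged peak spanned 2 of the 4 annotated TSSs of the gene.

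Neither replicate listed Trim41 as 1 wide peak. Replicate 1 had a lower peak of 146 bp (48817085 to 48817230) and an upper peak of 193 bp (48817282 to 48817474), with 51 bp between them. Replicate 2 had a lower peak of 321 bp (48816900 to 48817220) and an upper peak of 112 bp (48817288 to 48817399), with 67 bp between them. The replicate peaks covered 50.1% and 60.9% of the merged peak. The same arrangement of a lower and an upper peak thus appeared in both replicates. In the merged list 1 peak spanned both and ran on to 48817596, beyond the upper peak of either replicate.

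All 4 replicate peaks at Trim41 held 15 reads at the summit (interval 8.40 to 24.7). Their fold enrichments nevertheless fell into a higher and a lower pair, 12.6 and 12.5 for the lower peaks of replicates 1 and 2 and 10.2 and 10.1 for the upper peaks. With equal pileups this difference lay wholly in the background, which was 0.274 and 0.281 scaled reads behind the lower peaks and 0.569 and 0.584 behind the upper ones. The former are the lowest backgrounds of their lists, a level at which no control read lies over the summit and at most 19 lie within 1000 bp. The latter allow 2 control reads over the summit. Each list was called over the same solved number of control reads, and the control reads allowed at matching peaks were the same in both replicates. The backgrounds of the replicates therefore cannot be counted as independent observations, nor the difference between lower and upper peaks as replicated.

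The lower summits of Trim41 lay 33 bp apart in the replicates and the upper summits 42 bp apart, both less than the read length of 50 bp. The merged summit was 28 bp from the lower summit of replicate 1 and 5 bp from that of replicate 2. The lower CTAGAG match was inside the lower peak of both replicates, 52 bp from the merged summit, and the upper match was inside the upper peak of replicate 1 alone. In the upper peaks the summits fell at −18 bp and 24 bp relative to the TSS at 48817353, where negative values are upstream. For the lower summits the nearest TSS differed between replicates. That of replicate 1 was at −190 bp from the TSS at 48816953, and that of replicate 2 at 177 bp from the TSS at 48817353. GENCODE M21 has no transcript of the gene over the upper summit of replicate 1. With RefSeq exons of the gene added, all 676 bp of the merged peak were annotated as exon or UTR.

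**Figure D1:**
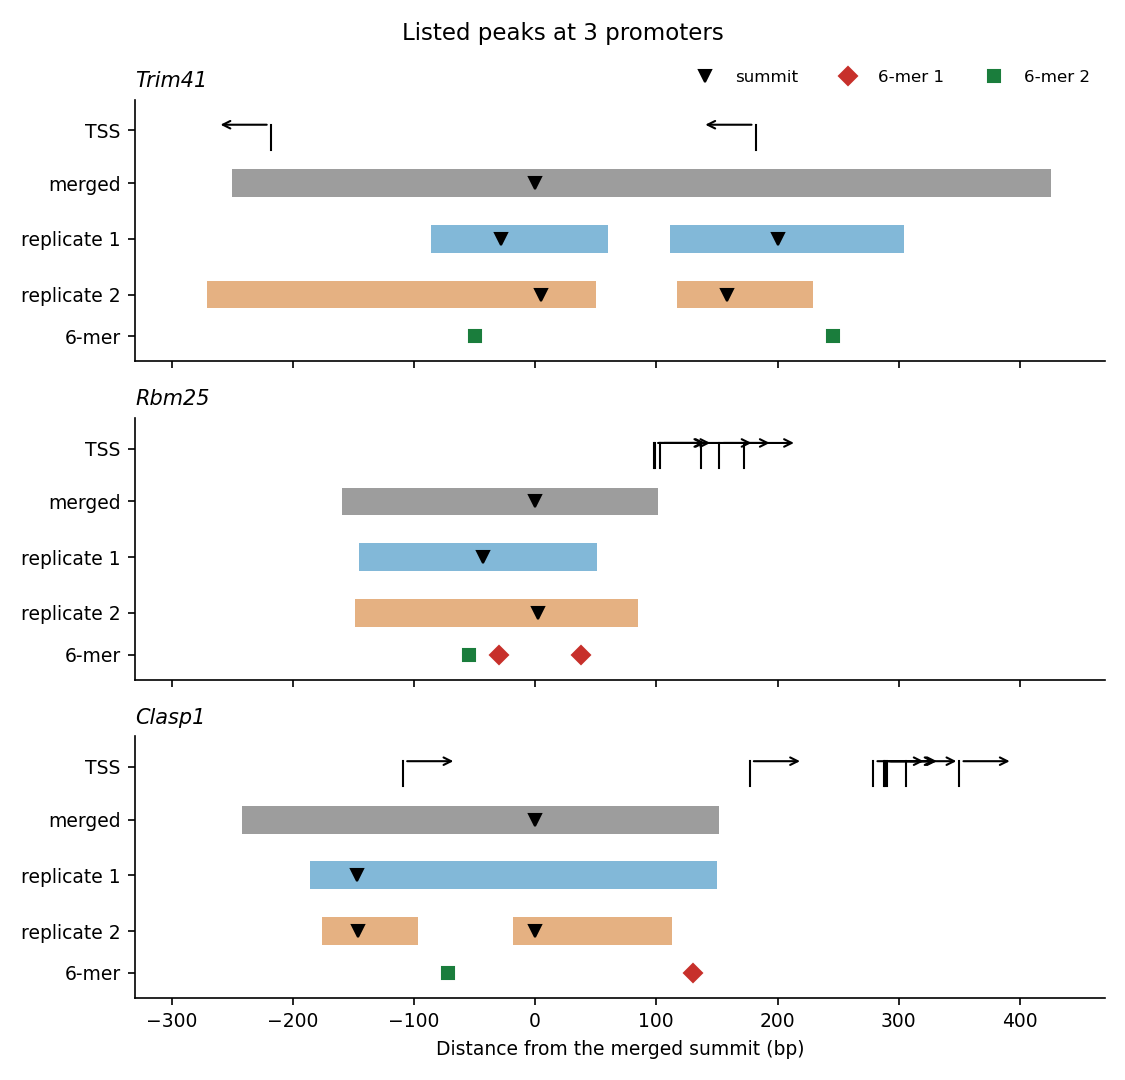
Peaks at the Trim41, Rbm25 and Clasp1 promoters. The horizontal axis is the distance from the merged summit in bp, bars are the listed peaks of the merged list and of replicates 1 and 2, triangles are summits, arrows are annotated TSSs pointing in the direction of transcription, and diamonds (6-mer 1, the first of the 6-mers named in the text) and squares (6-mer 2, the second) are sequence matches. Trim41 was listed as 2 peaks in each replicate, Clasp1 as 2 in replicate 2 alone and Rbm25 as 1 in each.

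Rbm25 (ENSMUSG00000010608.15, plus strand) had the narrowest merged peak of the 3, 260 bp on chromosome 12 from 83631995 to 83632254, enriched 12.1-fold over background. Its summit was covered by 18 reads (interval 10.7 to 28.4). It was also the most alike in form between lists, with 1 peak in each. Replicate 1 listed 196 bp (83632009 to 83632204) enriched 9.34-fold, with 11 reads (interval 5.49 to 19.7). Replicate 2 listed 234 bp (83632005 to 83632238) enriched 11.6-fold, with 14 reads (interval 7.65 to 23.5). The replicate peaks covered 75.4% and 90% of the merged peak, and their pileup intervals overlapped.

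The summits of Rbm25 were 45 bp apart in the replicates, and the merged summit at 83632154 was 43 bp from that of replicate 1 and 2 bp from that of replicate 2. Replicate 1, replicate 2 and the merged list placed it −141, −96 and −98 bp from the TSS at 83632252, upstream in each. The merged peak spanned 2 of the 18 annotated TSSs of the gene. These positions are in an intron of longer Rbm25 transcripts and in the exon of Gm29361, a gene annotated as antisense to Rbm25. The background was 0.573 scaled reads in the merged list and 0.284 and 0.292 in the replicates, a level that allows 1 control read over the summit in each list.

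Rbm25 held the most matches. ACCATAGA occurred at 2 places 67 bp apart on the same strand. The stretches of 15 bases around them were identical at 14 bases, of which the 8 of ACCATAGA were fixed by the search. The merged summit fell between them, with the lower ends of their ATAGAG matches at −32 and 35 bp. CTAGAG followed the nearer ATAGAG 25 bp downstream on the same strand. All matches lay inside the peak of both replicates. The corresponding stretch of 15 bases at Clasp1 was identical to either at 12 bases, again with these 8 included.

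Clasp1 (ENSMUSG00000064302.13, plus strand) had a merged peak of 394 bp on chromosome 1 from 118388925 to 118389318, with a fold enrichment of 8.85, rank 34 of 140. Its summit at 118389167 held 18 reads, as many as at Rbm25. The background there was 1.15 scaled reads, which allows 2 control reads over the summit, against 0.573 at Rbm25. Over the lowest background of the list in place of its own, a setting chosen after seeing the data, the same 18 reads correspond to a fold enrichment of 12.2. By fold enrichment the merged peak at Clasp1 was therefore lower than that at Rbm25, while by reads at the summit it was equal.

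The lists placed the summit of Clasp1 at different ends of the peak. Replicate 1 had 1 peak of 336 bp (118388981 to 118389316), enriched 10.9-fold, with 13 reads (interval 6.92 to 22.2) and a summit −38 bp from the TSS at 118389058. Replicate 2 had an upstream peak of 79 bp (118388991 to 118389069), 9.29-fold with 11 reads and a summit at −37 bp, and a downstream peak of 131 bp (118389149 to 118389279), 8.84-fold with 13 reads and a summit at 109 bp. The upstream summits of the replicates were thus 1 bp apart. The merged summit, in a UTR, was at the same base as the downstream summit of replicate 2 and 147 bp from the summit of replicate 1.

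At the upstream position the replicates held 13 and 11 reads and a background of 0.284 and 0.292 scaled reads, which allows 1 control read. At the downstream position of replicate 2 the background was 0.584 scaled reads, which allows 2, as in the merged list. The merged fold enrichment was below the highest value in both replicates. That held at Clasp1 alone among the 3 members and at 8 of the 54 peaks found in both replicates (14.8%). The CTAGAG match lay in the gap of 79 bp between the peaks of replicate 2 and the ATAGAG match beyond its downstream peak, so both were inside the peak of replicate 1 and outside both peaks of replicate 2. They were 202 bp apart on opposite strands, an arrangement unlike that at Rbm25.

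**Figure D2:**
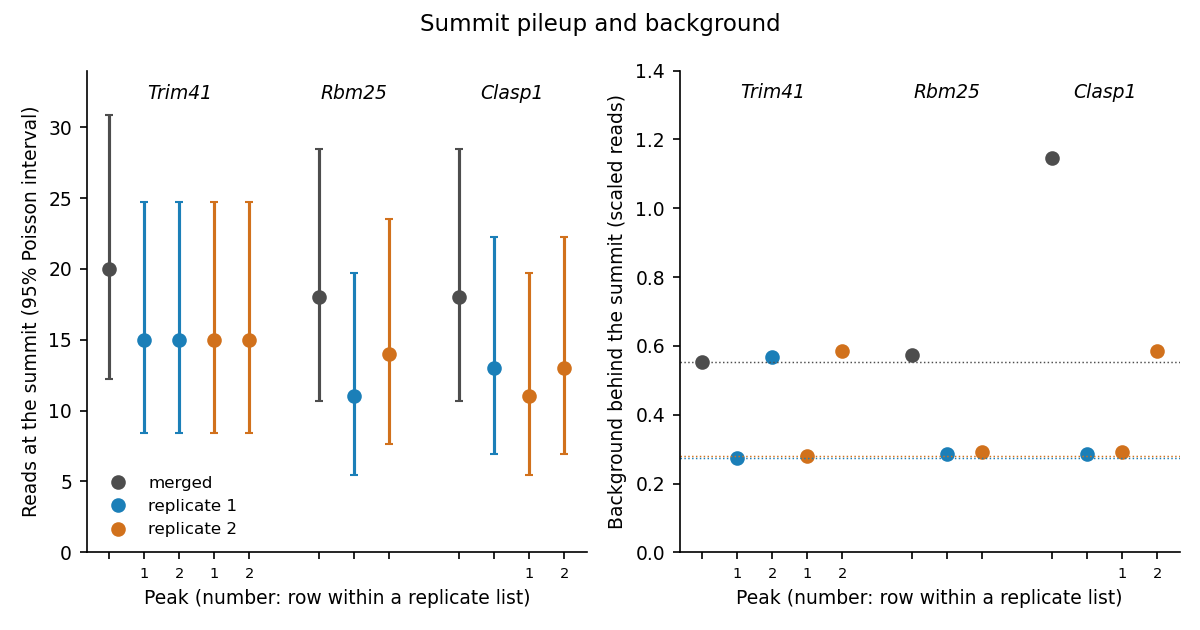
Reads at the summit (left, with exact 95% Poisson intervals) and background behind it (right, in reads scaled to the treatment depth) for each listed peak of Trim41, Rbm25 and Clasp1, colored by list, with dotted lines at the lowest background of each list and 1 and 2 numbering the peaks of a list from the lower coordinate. The 4 replicate peaks at Trim41 all held 15 reads, and the background was highest, 1.15, at the merged Clasp1 summit.

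The members were then set beside each other. In the merged list the order of fold enrichment was Trim41 (13.5), Rbm25 (12.1) and Clasp1 (8.85). By the replicate row with the most shared bp, the order was Clasp1 (10.9), Trim41 (10.2) and Rbm25 (9.34) in replicate 1, and Trim41 (12.5), Rbm25 (11.6) and Clasp1 (8.84) in replicate 2. Means of the replicates were 11.3 ± 1.62 for Trim41, 10.5 ± 1.60 for Rbm25 and 9.87 ± 1.46 for Clasp1 (SD, n = 2), and they differed by less than 1 SD between neighbors in this order. With the row of the highest fold enrichment instead, Trim41 had 12.5 ± 0.0504 and came first in both replicates, and Clasp1 had 10.1 ± 1.14. The place of Trim41 in replicate 1 thus depended on the row chosen. The Poisson intervals of the 3 members overlapped within each list, so the order among them is not resolved at 11 to 20 reads per summit.

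The −log10 q-value of the merged peak was 15.9 at Trim41, 14.3 at Rbm25 and 9.73 at Clasp1. By the row with the most shared bp it was 10.1, 8.49 and 11.3 in replicate 1 and 14.02, 12.7 and 7.67 in replicate 2, so the order of the members differed between the replicates. The lower peak of Trim41 in replicate 1 had 14.4, and the upstream peak of Clasp1 in replicate 2 had 8.25. All peaks listed at the members had a −log10 q-value of at least 7.67.

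Merged pileups were below the sum of the replicates. With the replicate row that shared the most bp, the ratio was 0.667 at Trim41, 0.720 at Rbm25 and 0.692 at Clasp1. Over the other 51 such peaks the median ratio was 0.708 (quartiles 0.682 and 0.750). Summits can differ between lists. The cause was not tested.

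Division into several listed peaks was seen at 9 of the 54 peaks found in both replicates (16.7%), in at least 1 replicate. Trim41 and Clasp1 were among them and Rbm25 was not. All 9 were over 250 bp wide in the merged list, and none of the 35 narrower peaks was divided. A wider merged peak has more room to overlap several listed peaks, so nothing further is read from this contrast. Besides Trim41, only the peak between Eif2s1 and Atp6v1d (chromosome 12, 78861771 to 78862120), named after its values were seen, was divided in both replicates. Across the 54 peaks, width had a Spearman rho of 0.318 with pileup, 0.467 with fold enrichment and −0.349 with background. These are descriptions across peaks that share libraries.

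**Figure D3:**
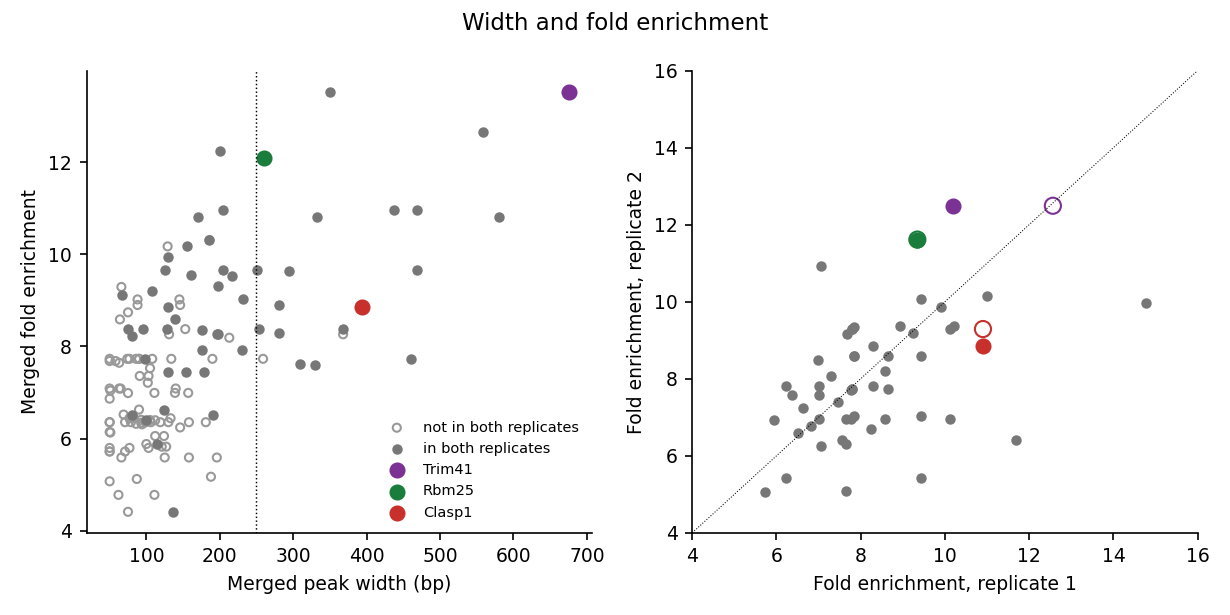
Fold enrichment against width for the 140 merged peaks (left, dotted line at 250 bp, open circles for peaks not found in both replicates) and fold enrichment in replicate 1 against replicate 2 for the 54 peaks found in both (right, dotted line of equality). Filled colored points are Trim41, Rbm25 and Clasp1 by the replicate row with the most shared bp and open colored circles the row with the highest fold, where Trim41 moves onto the line from 10.2 to 12.6 in replicate 1.

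Summit agreement depended on which replicate peaks were paired. By the row with the most shared bp, replicate summits were 195 bp apart at Trim41, 45 bp at Rbm25 and 147 bp at Clasp1, against a median of 30 bp over the other 51 peaks (range 0 to 262). By the closest pair of summits, a comparison added after seeing the data, they were 33, 45 and 1 bp apart, against a median of 29 bp (range 0 to 124). All 3 members were then within the read length of 50 bp, as were 35 of the other 51 and 8 of the 16 others over 250 bp wide. The closest pair can only shorten the distance at a divided peak, where it is taken over 4 pairs at Trim41 and 2 at Clasp1, whereas most other peaks had 1 pair.

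**Figure D4:**
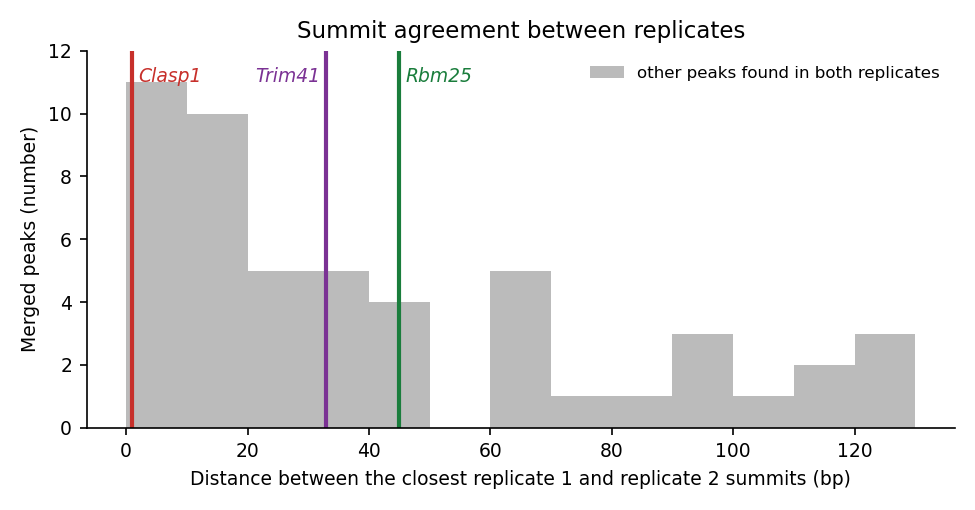
Distance in bp between the closest summits of replicate 1 and replicate 2 (horizontal axis) for the 51 other merged peaks found in both replicates (gray bars, number of peaks in bins of 10 bp) and for Trim41, Rbm25 and Clasp1 (colored lines). The members lie at 33, 45 and 1 bp, inside the range of the other peaks.

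The background at the summits ranged from the lowest value of the list to above its median. Trim41 was at the lowest merged background, as were 42 of all 140 merged peaks (30.0%), and Rbm25 was at the median of 0.573. Clasp1, at 1.15, was above that median and below the highest merged background of 2.87. Signal of the parental line at the summit was thus at most 2 reads for any member.

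Matches within 150 bp of the merged summit were compared with other peaks and with annotated TSSs. CTAGAG was found in all 3 members, in 53.3% of the other 137 merged summits and in 13.4% of 93459 windows of the same length on TSSs of protein-coding genes. These TSS windows cover every annotated transcript start of those genes, also starts far inside a gene. ATAGAG was found at Rbm25 and Clasp1, in 46.7% of the other summits and in 8.07% of the TSS windows. CGCTCTAG was found at Trim41, in 24.1% of the other summits and in 0.799% of the TSS windows. ACCATAGA was found at Rbm25 and Clasp1, in 24.8% of the other summits and in 0.721% of the TSS windows. For CCATAGAG, found at the same members, these shares were 27.7% and 0.953%. Among the 16 other peaks over 250 bp wide that were found in both replicates, the shares were 68.8% for CTAGAG, 62.5% for ATAGAG and 12.5% for CGCTCTAG. For ACCATAGA and CCATAGAG they were 50.0% and 43.8%. In windows of 50 bp on each side, none of the members held CTAGAG, against 30.7% of the other summits, and Rbm25 alone held ATAGAG, against 27.0%. A match is a description and does not show binding.

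Base composition differed among the members. In the same windows the GC share was 68.4% at Trim41 (rank 18 of 140), 56.1% at Rbm25 (rank 102) and 48.2% at Clasp1 (rank 131), against a median of 59.8% over the other merged summits (range 34.9 to 75.7). The ratio of observed to expected CpG was 0.965 at Trim41, 0.762 at Rbm25 and 0.760 at Clasp1, against a median of 0.789 over the other merged summits. Trim41 was above that median, and Rbm25 and Clasp1 were below it. Over protein-coding TSS windows the medians were 56.5% GC, which Trim41 alone exceeded, and a CpG ratio of 0.484, which all 3 exceeded. Those windows include starts far inside genes, so they do not stand for promoters alone. None of the 3 windows held soft-masked repeats, whose median share over the other summits was 3.32%.

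The nearest other merged peak was 385813 bp away from Trim41, 3314936 bp from Rbm25 and 14636095 bp from Clasp1. Of 21924 protein-coding gene symbols, 120 had a merged peak within 500 bp of a TSS (0.547%). Trim41 was the only bound gene of 68 in the Trim family, and Rbm25 the only one of 43 in the Rbm family. Rbm25 was also the only one of 15 genes of the U1-associated splicing list, which holds factors that recognize the 5′ splice site and their partners. Clasp1 was the only one of 22 genes that track microtubule plus ends, a list that also holds its paralog Clasp2. Each list contains a member, so a count of 1 is fixed by the choice. No further gene of these lists had a peak, and at 0.547% over all genes lists of this size would be expected to hold less than 1.

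The peaks most like each member were found by distance over 6 values, log2 width and log2 fold enrichment in the 3 lists, scaled over the 54 peaks found in both replicates. Zkscan5 was closest to Trim41 (distance 1.79, against a median of 5.24 to all others), followed by Rbm25 and the peak between Zfp142 and Bcs1l. Zfp389 was closest to Rbm25 (distance 1.37, median 3.79), followed by Zkscan5 and Mdc1. Mdc1 was closest to Clasp1 (distance 1.55, median 3.46), followed by the peak between Zfp142 and Bcs1l and by Zfp41. Clasp1 and Mdc1 were 394 and 437 bp wide in the merged list, 336 and 258 bp in replicate 1 and 131 and 223 bp in replicate 2, with merged fold enrichments of 8.85 and 10.95.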

How the data were processed

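Anti-V5 Cut&Run was performed by the authors in 2 AID-Zfp574 and 2 OsTir1 parental samples. They mapped single-end 50-bp reads to mm10 with Bowtie 0.12.9 (unique positions, up to 3 mismatches) and called peaks with MACS2 2.1.2.1 against the parental line, per replicate and on combined replicates. Paired-end BED input and an extension of 300 bp were stated. The deposited lists give a fold enrichment (a ratio), a −log10 p-value, a −log10 q-value and a score, which was not used.

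Pileup and background were solved from fold enrichment and −log10 p with the Poisson upper tail, and all pileups lay within 0.05 of a whole number. Depths and control reads rest on the 50-bp steps of the background, which differ from the stated extension. That extension may not apply to paired-end BED input. Overlap was at least 1 bp (checked with bedtools 2.31.1), and the replicate row with the most shared bp stood for a member. TSSs were from GENCODE M21. The steps were tested on simulated data. Python 3.11.15 and scipy 1.17.1 were used. Low depth leaves wide intervals, and weaker sites are not listed.

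Members and gene lists were chosen with earlier results of these data known, and no test was run on them. Named beside the members were genes within 500 bp of their summits, the peaks nearest the threshold and, for each member, the 3 most alike peaks. Alternatives were the row chosen, joining, pseudocount, thresholds, windows and single replicates.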

Additional observations from a re-analysis of the deposited data

How the results depend on the processing

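No paired analysis was possible because a parental peak list was not analysed here, so shared replicate numbers link no values. A minimum −log10 q or fold enrichment of 5 left all 3 members inside the rule, and so did a threshold of 200 bp, whereas 300 bp left out Rbm25. With at least 50% of each peak shared, 8 of 19 peaks met the rule and Rbm25 alone of the members. Joining peaks within 300 bp gave 32 such peaks, with a replicate mean width of 445 bp at Trim41 in place of 257 bp. With pseudocount 0 the merged pileups of Trim41, Rbm25 and Clasp1 were 31.7, 28.8 and 25.6 reads over backgrounds of 2.34, 2.39 and 2.90, but 16.4% of pileups were then whole.

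With the highest-fold row, replicate summits were 33 bp apart at Trim41 and 1 bp at Clasp1, as for the closest pair, and the mean replicate pileup of Clasp1 was 12 reads in place of 13. By the row with the most shared bp, merged and replicate 2 summits were 5, 2 and 0 bp apart at Trim41, Rbm25 and Clasp1, and merged and replicate 1 summits 200, 43 and 147 bp. Over the lowest background, chosen after seeing the data, Clasp1 had a fold enrichment of 12.2. ATAGAG was near 1 member in windows of 50 or 100 bp on each side, and CTAGAG and CGCTCTAG near 0 at 50 bp. Without replicate 1 or 2, these counts ranged from 1 to 2 for ATAGAG and from 0 to 1 for CGCTCTAG.

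With 1 replicate left out, width ranged from 193 to 321 bp at Trim41, 196 to 234 bp at Rbm25 and 131 to 336 bp at Clasp1, and fold enrichment from 10.2 to 12.5, 9.34 to 11.6 and 8.84 to 10.9. Pileups were 15 reads at Trim41, 11 to 14 at Rbm25 and 13 at Clasp1, and backgrounds ranged from 0.281 to 0.569, 0.284 to 0.292 and 0.284 to 0.584. Pileup and background scale with depth, which is lower in 1 replicate than in the merged list. Summits ranged from −18 to 177 bp relative to the TSS at Trim41, −141 to −96 bp at Rbm25 and −38 to 109 bp at Clasp1, so without replicate 2 the side of the TSS changed at Trim41, where the upper peak stood for the member, and at Clasp1, where the summit lay elsewhere in the same peak. The lower Trim41 summit of replicate 1, which did not stand for the member, was at −190 bp from another TSS. Depth limits any order among these summits.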
